A study of Mus musculus with 8 samples.

Results

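The genes described here encode chemokines, chemokine receptors, interleukins, and interleukin receptors and antagonists, measured by mRNA sequencing in mouse embryonic fibroblasts (MEF cells, strain C57BL/6), connective tissue cells grown in culture. They were chosen by symbol: all Ccl, Cxcl, Cx3cl, Ccr, Cxcr and Il gene names with a number, kept where at least 1 FPKM was listed in at least 2 libraries. FPKM counts sequenced fragments per 1000 bases of transcript and corrects for the depth of a library. Of 134 symbols, 44 passed: 14 of 33 chemokines, 1 of 17 chemokine receptors and 29 of 84 interleukins, their receptors and antagonists. Of the others, 30 were listed at 0 in all libraries and 60 above 0 but under the minimum. Il2rb was just inside it, with a second-highest value of 1.02 FPKM, and Cxcl17 just outside, with 0.850 FPKM. In all, 12025 genes were tested.

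The 8 libraries form 4 groups of 2. The TAFH-deleted rescue is clones 1 and 2 of Taf4 -/- cells with a stable human transgene, hTAF4 Δ, that lacks the TAFH domain. The wild-type rescue is clones 1 and 2 of Taf4 -/- cells with hTAF4 wt. The knockout is Taf4 -/- without a transgene, and the control is Taf4 loxp/-, which another label field calls wild type although it has a null allele. All Taf4 -/- groups thus lack mouse Taf4 according to their labels. The labels do not give the promoter of the transgenes, whether the clones arose independently, or whether libraries of a group are separate cultures. The p-values here therefore reflect the spread among these samples and no more. TAF4 is a subunit of TFIID, the general factor that binds core promoters, and the series title names it as a coactivator of E proteins, the basic helix-loop-helix factors that bind E-box letters in DNA.

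Chemokines are small secreted proteins that draw leukocytes along a gradient. They are named by the spacing of their first cysteines (CC, CXC, CX3C), and those CXC chemokines with a Glu-Leu-Arg (ELR) motif act mainly on neutrophils. Fibroblasts make many of them when IL-1, TNF or microbial products activate NF-κB, which binds κB letters near the start of genes such as Cxcl1, Cxcl10, Ccl20 and Il6. Agonists of the IL-1 family, among them IL-1α, IL-33 and IL-18, signal through paired receptor chains to NF-κB, and the family also holds the antagonist encoded by Il1rn. Most other interleukin receptors signal through JAK kinases and STAT factors.

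The stretch before the transcription start of 5 of these genes is shown because κB letters recur in the chemokine genes, and because Il6 had the widest difference of a member between the rescue forms, Il20ra was called there, and Ccl20 had the widest positive difference in knockout against control. Sequences are RefSeq's, in the GRCm38.p6 build, each the 250 bases before the annotated start, 5′ to 3′ on the gene's strand. Capitals mark the κB letters, taken as GGG, any 3 bases and TTCC on either strand, joined where matches overlap.
Ccl20, chr1:83116516-83116765, + strand: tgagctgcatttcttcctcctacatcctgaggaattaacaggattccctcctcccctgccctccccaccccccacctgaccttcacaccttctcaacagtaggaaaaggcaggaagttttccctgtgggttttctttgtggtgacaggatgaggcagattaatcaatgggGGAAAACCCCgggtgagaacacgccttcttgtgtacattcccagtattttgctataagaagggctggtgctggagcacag
Cxcl1, chr5:90890995-90891244, + strand: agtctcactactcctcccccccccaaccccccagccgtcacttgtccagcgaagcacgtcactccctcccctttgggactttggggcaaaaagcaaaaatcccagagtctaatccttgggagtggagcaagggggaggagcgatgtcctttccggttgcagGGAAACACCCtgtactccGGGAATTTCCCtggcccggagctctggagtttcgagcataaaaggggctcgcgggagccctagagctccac
Cxcl10, chr5:92348890-92349139, - strand: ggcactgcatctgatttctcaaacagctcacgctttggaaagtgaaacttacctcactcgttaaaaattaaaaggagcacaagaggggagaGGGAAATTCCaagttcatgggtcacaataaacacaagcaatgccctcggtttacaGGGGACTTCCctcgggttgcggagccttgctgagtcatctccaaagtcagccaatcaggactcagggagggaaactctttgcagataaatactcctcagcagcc
Il6, chr5:30012864-30013113, + strand: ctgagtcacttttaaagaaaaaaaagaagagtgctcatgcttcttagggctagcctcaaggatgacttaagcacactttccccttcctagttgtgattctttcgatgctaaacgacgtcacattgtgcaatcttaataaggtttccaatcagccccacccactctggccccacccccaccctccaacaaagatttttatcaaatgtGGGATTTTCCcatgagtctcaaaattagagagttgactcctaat
Il20ra, chr10:19712337-19712586, + strand: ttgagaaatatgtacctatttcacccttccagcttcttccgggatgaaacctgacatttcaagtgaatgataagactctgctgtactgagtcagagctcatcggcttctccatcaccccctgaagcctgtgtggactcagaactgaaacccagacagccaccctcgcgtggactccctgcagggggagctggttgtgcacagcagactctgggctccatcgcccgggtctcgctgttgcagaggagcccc
The marked letters begin 80 bases before the start in Ccl20, 89 and 71 in Cxcl1, 159 and 104 in Cxcl10 and 44 in Il6, and none match in Il20ra. Of 44 members, 35 had an entry in the promoter table (Cxcr7 under its current symbol, Ackr3). The κB letters occur in 5 of 10 chemokines with an entry (50%: Ccl20, Ccl9, Cxcl1, Cxcl10 and Cxcl3) and in 4 of 25 other members (16%: Il17rc, Il1r1, Il1rn and Il6), against 5.31% of all 27025 genes with an entry, a gene counting where any of its promoters matches. E-box letters, CANNTG, which read the same on both strands, occur in 30 of 35 members (85.7%) and in 69.3% of all genes with an entry. A match is only a run of letters, and no binding was measured here.

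Implied totals were 14300000 to 17300000 fragments per library. The 2 knockout libraries differed by less than the sampling noise, with a chi-square per gene of 0.567 ± 0.0283 (SE), and so did the 2 control libraries, with 0.721 ± 0.0306 (SE), so each pair was counted as 1 sample. Taf4a, the gene targeted, was listed at 14.7 and 19.2 FPKM in TAFH-deleted, 14.5 and 15.0 in wild-type rescue, 12.5 and 12.4 in knockout and 11.1 and 11.5 in control. Its summed level was thus not lower in the libraries labelled knockout, and since the labels do not say which exons are lost, it does not check their genotype. Fibroblast markers summed to 673 to 763 FPKM in every library, although Thy1 was under 1 FPKM throughout. All 4 leukocyte, 7 T and B cell, 3 mast cell, 4 endothelial and 4 epithelial markers were under 1 FPKM in all libraries. Of 8 macrophage markers listed, 4 were under 1 FPKM (Emr1, Itgam, Lyz1 and Aif1), but the list's sum differed between the groups: 7.71 and 8.74 FPKM in TAFH-deleted, 23.2 and 16.7 in wild-type rescue, 13.7 and 15.0 in knockout and 14.8 and 16.0 in control. It was thus lower in TAFH-deleted than in wild-type rescue, as were many members, and its part in their results was not tested. Within the list, Cd14 and Lyz2 were lower in both TAFH-deleted clones than in both wild-type clones. Cd68 and Csf1r went the other way in TAFH-deleted clone 2, their highest library, at 3.45 and 1.09 FPKM. In such bulk samples, fewer cells of a type and less RNA per cell cannot be told apart. Gapdh, which every cell uses, was listed between 0.0682 and 0.599 FPKM, so a member listed near 0 need not be absent from the cells.

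The members covered a wide range of levels, as the heat map by role and library shows. Cxcl12, Cxcl1, Cxcl5, Ccl2, Ccl7 and Il6st were listed above 50 FPKM in every library, while Il1b, the second agonist of the IL-1 receptor, was at 0 in all of them and Cxcl2 reached 0.267 FPKM at most. Cxcr7 was the only chemokine receptor that passed the minimum. It is a scavenger of CXCL12, the chemokine with the highest listed FPKM among the members.

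**Figure D1:**
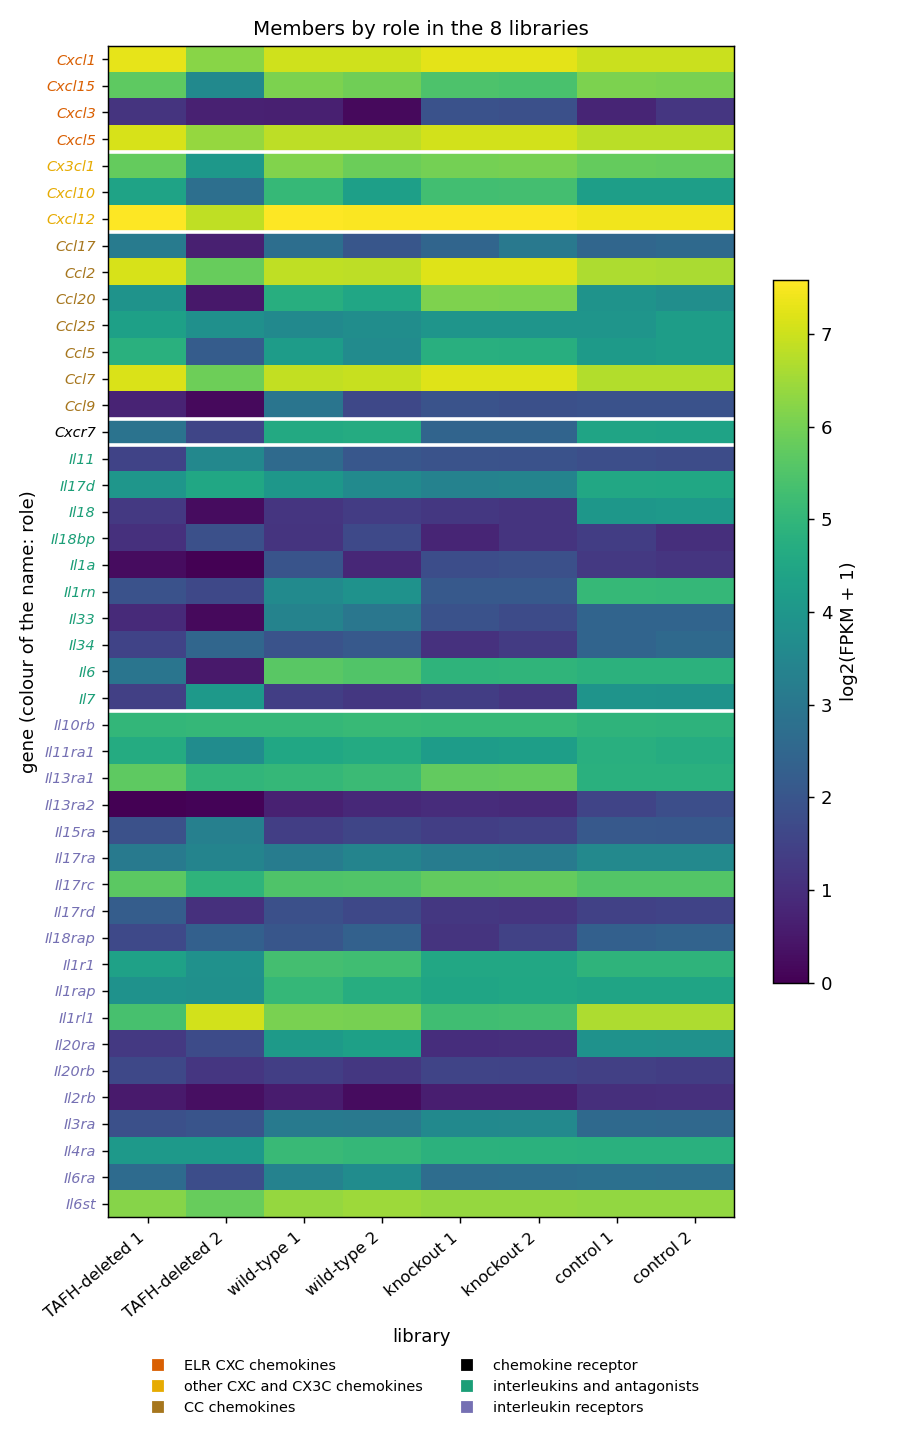
Level of the 44 members as log2(FPKM + 1), the colour scale, with genes as rows ordered by role and the 8 libraries as columns. TAFH-deleted clone 2 is the darkest column for most chemokines (12 of 14 have their lowest value there), while Il20ra, Il1rn and Cxcr7 are darker in TAFH-deleted and knockout than in wild-type rescue and control.

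The central comparison asks what the TAFH domain adds to a TAF4 transgene. In TAFH-deleted against wild-type rescue, 4 members fell and none rose by limma on log2(FPKM + 1) at an adjusted p of 0.05: Il1rn, Il20ra, Il33 and Il4ra. Among all genes 1.69% fell and 0.931% rose. An unadjusted p under 0.05 was reached by 14 of 44 members and by 28.8% of all genes. By group means, the higher at least 1 FPKM, 14 members differed at least 2-fold downwards, as 7.89% of all genes did, and 2 upwards, as 4.52% did. Each TAFH-deleted clone was 2-fold below the wild-type mean in 11 of the 14, but clone 2 alone in Ccl20, Cxcl15 and Il1r1, and clone 2 alone was 2-fold above it for the 2 higher members, Il15ra and Il7. Without clone 1 the 2-fold count was 26 instead of 16. Of 44 members, 33 had a lower mean on the log2 scale, with a median difference of -0.39 against 0.06 over all genes. That median was -0.85 without TAFH-deleted clone 1 and -0.22 without clone 2, when 25 members were lower. Both TAFH-deleted clones were below both wild-type clones in 18 members (26.4% of all genes) and above them in 4 (37.1% of all genes). All 4 calls end when either wild-type clone is left out, or when 184 genes with short transcripts are kept, where the 4 adjusted p-values are 0.0503 to 0.0636. Without the filter on low values Il4ra alone passes (limma, adjusted p = 0.0461). With TAFH-deleted clone 1 or clone 2 left out, the wider-spread pair becomes a single sample and more members pass. The share of all genes that then pass is not given here, so this does not set the members apart.

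The other 3 comparisons gave 0 called members and 0% of genes called by limma in either direction. Unadjusted p-values under 0.05 were found for 8 members in TAFH-deleted against knockout (6.56% of all genes), 6 in wild-type rescue against knockout (13.3%) and 7 in knockout against control (9.21%). The spread behind these tests comes from the rescue clones alone, and mostly from the TAFH-deleted pair: over all genes, the log2 difference between clones had an SD of 0.575 in TAFH-deleted and 0.203 in wild-type rescue. With TAFH-deleted clone 1 or clone 2 left out, some members pass in each of these comparisons. The share of all genes that then pass is not given here. The members of these comparisons are therefore described by their values. They share the knockout or a rescue group with each other, so their differences are not independent.

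**Figure D2:**
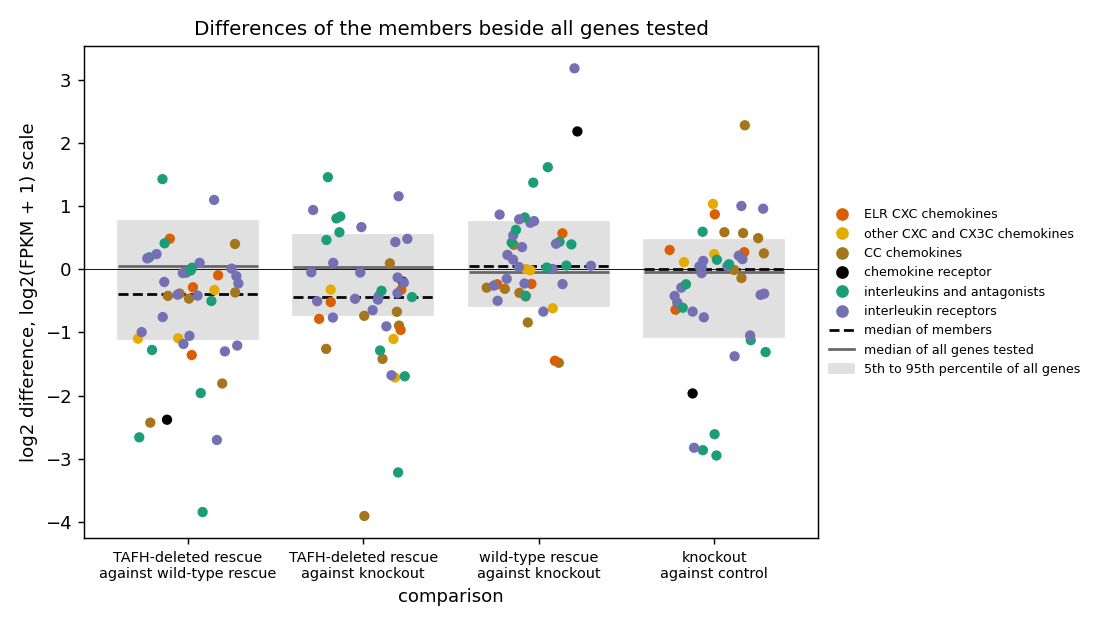
Difference of each of the 44 members on the log2(FPKM + 1) scale, as points coloured by role, in the 4 comparisons on the x axis, with the 5th to 95th percentile of all 12025 genes as a grey band and medians as lines. In TAFH-deleted against wild-type rescue the median of the members is -0.39 and that of all genes 0.06, and Il6 lies lowest at -3.85.

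The IL-1 family held 2 of the 4 called members. Il1rn, the antagonist that occupies the IL-1 receptor without signalling (mm9, chr2:24192380-24207011), was listed at 2.76 and 2.15 FPKM in TAFH-deleted, 11.4 and 13.5 FPKM in wild-type rescue, 3.35 and 3.36 FPKM in knockout and 33.05 and 32.3 FPKM in control. The TAFH-deleted clones overlapped neither wild-type clone and lay close to knockout, and control was highest. The means were 2.46 ± 0.429 FPKM in TAFH-deleted and 12.4 ± 1.48 FPKM in wild-type rescue (SD, n = 2 each), a log2 difference of -1.96 ± 0.20 (SE) (limma, adjusted p = 0.0438, and 0.0874 without the filter on low values). In knockout the mean was 9.74-fold lower than in control, with a log2 difference of -2.95 ± 0.28 (SE) that did not pass (limma, adjusted p = 0.128). In wild-type rescue the level stood 3.71-fold above knockout, and still below both control libraries.

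Il33 encodes an alarmin stored in the nucleus that signals through the receptor encoded by Il1rl1 (chr19:29999604-30035205 in mm9). It was listed at 0.872 and 0.132 FPKM in TAFH-deleted, 9.57 and 7.05 FPKM in wild-type rescue, 2.78 and 2.32 FPKM in knockout and 4.43 and 4.39 FPKM in control. Wild-type rescue was highest and both TAFH-deleted clones were lowest of all libraries, with 29 and 5 fragments. The means were 0.502 ± 0.523 FPKM in TAFH-deleted and 8.31 ± 1.78 FPKM in wild-type rescue (SD, n = 2 each). The log2 difference was -2.66 ± 0.33 (SE) (limma, adjusted p = 0.0496), a call lost with a pseudocount of 0.1 (adjusted p = 0.0790), without the filter on low values (0.139), after quantile normalization (0.0644) and with only the groups compared (0.0501).

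Il18, a cytokine of the same family that promotes interferon-γ production, had another pattern. It was listed at 1.38 and 0.186 FPKM in TAFH-deleted, 1.24 and 1.52 FPKM in wild-type rescue, 1.33 and 1.22 FPKM in knockout and 15.2 and 15.98 FPKM in control. Control was apart from all Taf4 -/- libraries, and no rescue clone came near it. The knockout mean was 12.2-fold below control, with a log2 difference of -2.87 ± 0.55 (SE) (limma, adjusted p = 0.294). Il18bp, which binds and neutralizes IL-18, stayed between 0.733 and 2.57 FPKM. Il1a, the agonist that dying cells release, was low in all groups, at 0.180 and 0 FPKM in TAFH-deleted, 2.90 and 0.777 FPKM in wild-type rescue, 2.46 and 2.58 FPKM in knockout and 1.40 and 1.25 FPKM in control. Its highest TAFH-deleted value was below its lowest wild-type value.

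The receptor chains of this family did not pass the test. Il1r1, which binds IL-1, was listed at 19.1 and 13.2 FPKM in TAFH-deleted, 38.7 and 37.2 FPKM in wild-type rescue, 22.5 and 22.1 FPKM in knockout and 29.4 and 29.3 FPKM in control. Il1rap, the accessory chain shared by the IL-1 and IL-33 receptors, was listed at 13.6 and 12.98 FPKM in TAFH-deleted, 32.2 and 25.5 FPKM in wild-type rescue, 20.9 and 21.8 FPKM in knockout and 20.7 and 20.5 FPKM in control. For both, each TAFH-deleted clone was below all other libraries and wild-type rescue was above all others. Their log2 differences between the rescue forms were -1.21 ± 0.20 (SE) and -1.05 ± 0.16 (SE), just short of the threshold (limma, adjusted p = 0.0659 and 0.0595). The IL-33 receptor gene Il1rl1 was listed at 40.5 and 132 FPKM in TAFH-deleted, 65.5 and 64.004 FPKM in wild-type rescue, 37.5 and 37.8 FPKM in knockout and 99.5 and 99.3 FPKM in control. The TAFH-deleted clones lay on opposite sides of wild-type rescue, clone 1 near knockout and clone 2 above control. Il18rap, an accessory chain of the IL-18 receptor, stayed between 1.19 and 4.34 FPKM, and its knockout mean was 2.77-fold below control (limma, adjusted p = 0.565). Il1r1, Il1rl1 and Il18rap lie in 1 cluster on chromosome 1 (mm9, 40281925 to 40606142), and their values did not follow a single pattern.

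**Figure D3:**
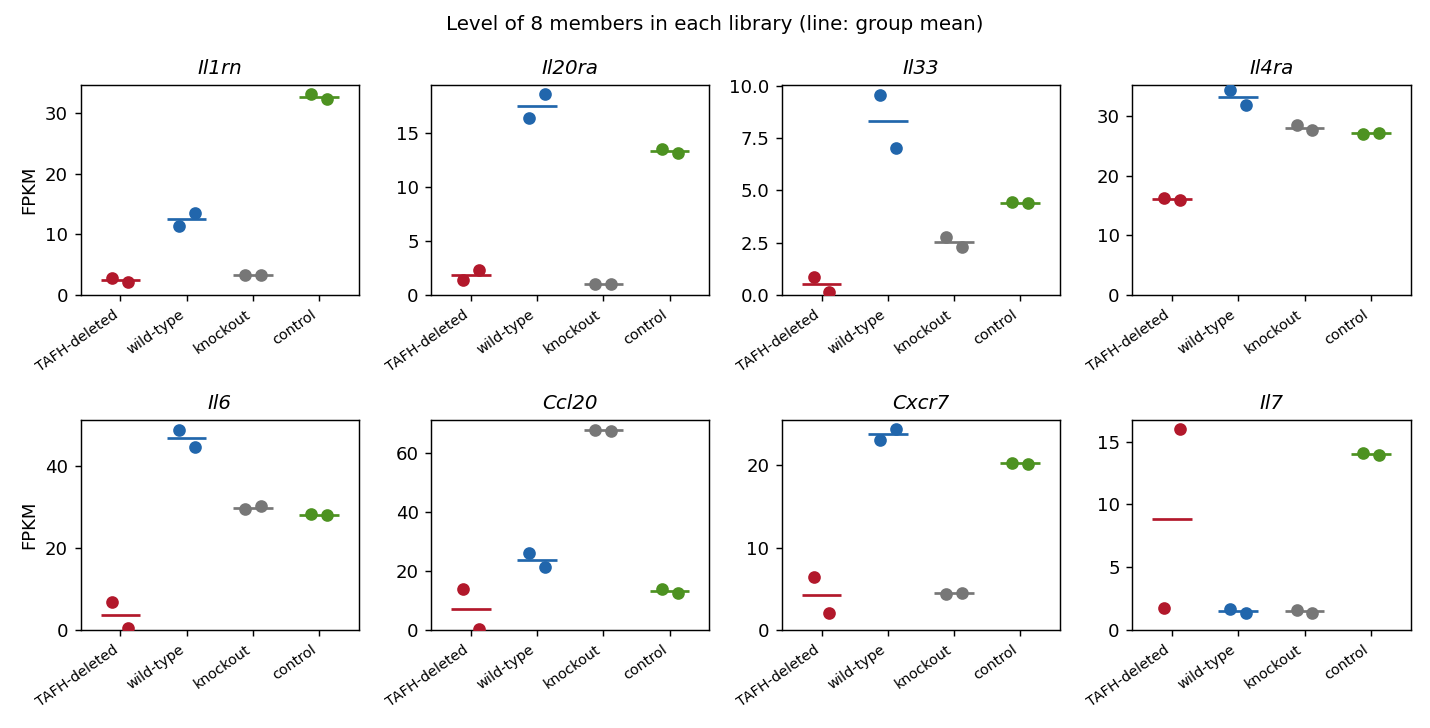
FPKM (y axis, from 0) of 8 members in each library, by group on the x axis, with points for the 2 libraries and a line for the group mean. Il1rn, Il20ra and Cxcr7 are high in wild-type rescue and control and low in TAFH-deleted and knockout. Il7 is high in TAFH-deleted clone 2 and control and low in the other libraries, and Ccl20 is highest in knockout.

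Among the other receptors, Il20ra and Il4ra were the called members. Il20ra encodes a chain of the receptor for IL-19, IL-20 and IL-24 (chr10:19432393-19479859 in mm9). It was listed at 1.41 and 2.32 FPKM in TAFH-deleted, 16.4 and 18.6 FPKM in wild-type rescue, 1.004 and 1.04 FPKM in knockout and 13.6 and 13.2 FPKM in control. TAFH-deleted and knockout were low and wild-type rescue and control high, with no overlap between the low and the high groups. Means were 1.87 ± 0.642 FPKM in TAFH-deleted and 17.5 ± 1.58 FPKM in wild-type rescue (SD, n = 2 each), a log2 difference of -2.71 ± 0.24 (SE) (limma, adjusted p = 0.0398, and 0.0893 without the filter on low values). The wild-type rescue mean was 17.1-fold above knockout, with a log2 difference of 3.19 ± 0.29 (SE) (limma, adjusted p = 0.201), and the knockout mean 13.1-fold below control, with -2.83 ± 0.34 (SE) (limma, adjusted p = 0.153). Il20rb, its partner chain, stayed between 1.30 and 2.10 FPKM in all libraries. Il10rb, shared by the receptors for IL-10, IL-22 and interferon-λ, was listed at 31.5 and 31.96 FPKM in TAFH-deleted, 32.3 and 33.8 FPKM in wild-type rescue, 32.8 and 32.9 FPKM in knockout and 29.7 and 28.7 FPKM in control. Its libraries lay close together, with control lowest and TAFH-deleted just below wild-type rescue.

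Il4ra, the chain common to the IL-4 and IL-13 receptors (mm9, chr7:132695796-132722988), was listed at 16.2 and 15.997 FPKM in TAFH-deleted, 34.3 and 31.9 FPKM in wild-type rescue, 28.4 and 27.7 FPKM in knockout and 27.005 and 27.2 FPKM in control. The TAFH-deleted clones were close to each other and below all other libraries. Means were 16.1 ± 0.172 FPKM in TAFH-deleted and 33.1 ± 1.67 FPKM in wild-type rescue (SD, n = 2 each), a log2 difference of -0.99 ± 0.10 (SE) (limma, adjusted p = 0.0438). Knockout and control differed by 0.05 ± 0.14 (SE) on the log2 scale (limma, adjusted p = 0.922). Its signalling partner Il13ra1 was listed at 51.4 and 30.7 FPKM in TAFH-deleted, 32.1 and 34.7 FPKM in wild-type rescue, 53.2 and 54.1 FPKM in knockout and 26.9 and 27.1 FPKM in control. Knockout and TAFH-deleted clone 1 were the high libraries and control the lowest. Il13ra2, a decoy for IL-13, had values of 0 and 0.0462 FPKM in TAFH-deleted, 0.616 and 0.844 in wild-type rescue, 0.963 and 0.862 in knockout and 1.96 and 2.52 in control.

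Il6 had the widest difference between the rescue forms on the log2 scale. It encodes a cytokine of the acute-phase response (mm9, chr5:30339701-30346508) and was listed at 6.75 and 0.419 FPKM in TAFH-deleted, 48.96 and 44.7 FPKM in wild-type rescue, 29.6 and 30.2 FPKM in knockout and 28.2 and 28.1 FPKM in control. Both TAFH-deleted clones were below every other library, knockout and control were nearly equal, and wild-type rescue was above both. The TAFH-deleted mean was 13.1-fold below wild-type rescue, a log2 difference of -3.85 ± 0.86 (SE), but the clones were 16.1-fold apart, with 85 and 6 fragments, and the difference did not pass (limma, adjusted p = 0.0873). Against knockout the TAFH-deleted mean was 8.35-fold lower (limma, adjusted p = 0.740), while knockout and control differed by 0.08 ± 1.22 (SE) on the log2 scale (limma, adjusted p = 0.986).

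Il6ra, which binds IL-6, was listed at 5.23 and 2.47 FPKM in TAFH-deleted, 9.25 and 11.8 FPKM in wild-type rescue, 5.53 and 5.66 FPKM in knockout and 5.91 and 5.82 FPKM in control. Wild-type rescue was highest and did not overlap the TAFH-deleted clones. Il6st, the gp130 chain that signals for the whole family, was listed at 72.6 and 55.2 FPKM in TAFH-deleted, 82.3 and 87.1 FPKM in wild-type rescue, 82.3 and 82.5 FPKM in knockout and 80.7 and 80.3 FPKM in control, with both TAFH-deleted clones below all other libraries. Il11, another gp130 cytokine, was listed at 1.85 and 10.5 FPKM in TAFH-deleted, 5.12 and 3.13 FPKM in wild-type rescue, 2.83 and 2.79 FPKM in knockout and 2.50 and 2.36 FPKM in control, and TAFH-deleted clone 2 stood above all others. Its receptor chain Il11ra1, which shares sequence with a near-identical mouse gene and is therefore less certain, was listed at 24.2 and 11.8 FPKM in TAFH-deleted, 21.8 and 23.6 FPKM in wild-type rescue, 17.3 and 17.8 FPKM in knockout and 26.3 and 24.9 FPKM in control.

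Il7, a growth factor for lymphocyte precursors made by stromal cells, had the widest split among the members that were higher in TAFH-deleted clone 2. It was listed at 1.70 and 16.03 FPKM in TAFH-deleted, 1.68 and 1.35 FPKM in wild-type rescue, 1.61 and 1.31 FPKM in knockout and 14.1 and 13.97 FPKM in control. TAFH-deleted clone 2 was at the level of control, and clone 1 at that of wild-type rescue and knockout. The knockout mean was 9.64-fold below control (limma, adjusted p = 0.632). Il15ra, which presents IL-15 to neighbouring cells, was listed at 2.70 and 8.82 FPKM in TAFH-deleted, 1.64 and 1.98 FPKM in wild-type rescue, 1.62 and 1.76 FPKM in knockout and 3.30 and 3.27 FPKM in control, again highest in TAFH-deleted clone 2. Il34, a ligand of the CSF-1 receptor, was listed at 1.90 and 4.68 FPKM in TAFH-deleted, 2.86 and 3.35 FPKM in wild-type rescue, 1.11 and 1.51 FPKM in knockout and 4.42 and 5.06 FPKM in control. Knockout was lowest there, 3.61-fold below control by the means (limma, adjusted p = 0.567). Il3ra, the IL-3 binding chain, was listed at 2.59 and 2.90 FPKM in TAFH-deleted, 7.68 and 7.31 FPKM in wild-type rescue, 11.1 and 10.9 FPKM in knockout and 5.02 and 4.91 FPKM in control. TAFH-deleted was lowest and knockout highest, without overlap of any groups, and the TAFH-deleted mean was 2.73-fold below wild-type rescue (limma, adjusted p = 0.0590) and 3.9997-fold below knockout (0.417). Il2rb, the chain shared by IL-2 and IL-15 receptors, did not exceed 1.09 FPKM.

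In the IL-17 group no member was 2-fold apart between the rescue forms. Il17d, a secreted member, was listed at 14.7 and 21.7 FPKM in TAFH-deleted, 15.1 and 11.4 FPKM in wild-type rescue, 9.29 and 9.75 FPKM in knockout and 22.1 and 21.6 FPKM in control, with knockout lowest and 2.30-fold below control by the means (limma, adjusted p = 0.511). Il17ra, the common receptor chain, was listed at 7.58 and 9.60 FPKM in TAFH-deleted, 8.06 and 9.78 FPKM in wild-type rescue, 7.997 and 7.75 FPKM in knockout and 10.9 and 10.8 FPKM in control. Il17rc, which pairs with it for IL-17A and IL-17F, was listed at 49.5 and 29.2 FPKM in TAFH-deleted, 43.98 and 45.2 FPKM in wild-type rescue, 53.2 and 53.7 FPKM in knockout and 45.7 and 45.8 FPKM in control. TAFH-deleted clone 2 was lowest for Il17rc and the other libraries lay within 10 FPKM of each other. Il17rd stayed between 1.08 and 3.66 FPKM.

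Of the 14 chemokines, none passed the test between the rescue forms, and their direction differed between the TAFH-deleted clones. On the log2 scale 12 had a lower mean in TAFH-deleted rescue, with a median difference of -0.40, and 11 had a lower mean in FPKM. Without clone 2 the median was 0.25, and 9 of 14 had a positive difference. Without clone 1, 12 were lower, with a median of -1.36. For 10 interleukins and antagonists the median was -0.26, 0.03 after quantile normalization, -0.66 without clone 2 and -0.41 without wild-type clone 1. For 19 interleukin receptors it was -0.22, -0.61 without TAFH-deleted clone 1 and -0.36 without wild-type clone 1. The neutrophil-directed ELR chemokine Cxcl1 was listed at 155 and 73.4 FPKM in TAFH-deleted, 131 and 129 FPKM in wild-type rescue, 153 and 154 FPKM in knockout and 124 and 123 FPKM in control. Cxcl5, of the same class, was listed at 138 and 81.8 FPKM in TAFH-deleted, 113 and 113 FPKM in wild-type rescue, 132 and 133 FPKM in knockout and 109.7 and 109.8 FPKM in control. In both, knockout was above control and TAFH-deleted clone 2 below all others, while clone 1 was above wild-type rescue. Both genes had more than 80% of their possible read starts in use in every other library. Cxcl1 had 1650 fragments in TAFH-deleted clone 1 and 1667 and 1628 in wild-type rescue. Cxcl5 had 2852 fragments in TAFH-deleted clone 1 and 2800 and 2783 in wild-type rescue. Clone 1 was thus above wild-type rescue in FPKM but close to it in fragments. The part of the starts in use in these values was not tested. Cxcl15, which is known mainly from mouse lung, was listed at 51.3 and 11.1 FPKM in TAFH-deleted, 66.6 and 60.5 FPKM in wild-type rescue, 43.02 and 41.6 FPKM in knockout and 66.95 and 65.97 FPKM in control. Here knockout was below wild-type rescue and control, unlike its neighbours in the cluster on chromosome 5. Cxcl3 was low, between 0.146 and 2.75 FPKM, and its knockout mean was 2.67-fold above control (limma, adjusted p = 0.584).

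Cxcl10, an interferon-inducible ligand of CXCR3 on T cells, was listed at 20.03 and 5.78 FPKM in TAFH-deleted, 33.01 and 18.2 FPKM in wild-type rescue, 37.8 and 38.6 FPKM in knockout and 18.04 and 18.1 FPKM in control. Knockout was above every other library and TAFH-deleted clone 2 below every other. The knockout mean was 2.11-fold above control (limma, adjusted p = 0.746). Cxcl12, which retains blood stem cells in bone marrow, was listed at 190.1 and 116 FPKM in TAFH-deleted, 188 and 184 FPKM in wild-type rescue, 186 and 185 FPKM in knockout and 171 and 171 FPKM in control. Cx3cl1, a membrane-bound chemokine that can be shed, was listed at 53.97 and 15.5 FPKM in TAFH-deleted, 69.5 and 57.5 FPKM in wild-type rescue, 63.4 and 64.03 FPKM in knockout and 53.9 and 53.4 FPKM in control. For both Cxcl12 and Cx3cl1, TAFH-deleted clone 2 alone stood below the rest. It was 1.64-fold below clone 1 for Cxcl12 and 3.48-fold for Cx3cl1.

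The CC chemokine Ccl20 attracts CCR6-bearing lymphocytes and dendritic cells (mm9, chr1:83113341-83115742). It was listed at 13.7 and 0.414 FPKM in TAFH-deleted, 26.01 and 21.4 FPKM in wild-type rescue, 67.9 and 67.5 FPKM in knockout and 13.8 and 12.4 FPKM in control. Knockout was far above all other groups, wild-type rescue next, and TAFH-deleted clone 2 near 0 with 4 fragments. The knockout mean was 5.18-fold above control, a log2 difference of 2.29 ± 1.67 (SE), and the wild-type rescue mean 2.85-fold below knockout, a log2 difference of -1.48 ± 1.45 (SE) (limma, adjusted p = 0.705 and 0.717). The TAFH-deleted mean was 9.57-fold below knockout, with -3.91 ± 1.45 (SE) (limma, adjusted p = 0.752).

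The monocyte-attracting Ccl2 was listed at 139 and 55.2 FPKM in TAFH-deleted, 113 and 113 FPKM in wild-type rescue, 148 and 146 FPKM in knockout and 98.96 and 97.2 FPKM in control. Ccl7, its neighbour on chromosome 11 with a like function, was listed at 142 and 58.6 FPKM in TAFH-deleted, 118 and 121 FPKM in wild-type rescue, 147 and 146 FPKM in knockout and 103 and 103 FPKM in control. Both had knockout above wild-type rescue and wild-type rescue above control, with TAFH-deleted clone 2 lowest. Ccl5, which attracts T cells, was listed at 27.2 and 3.58 FPKM in TAFH-deleted, 17.4 and 11.6 FPKM in wild-type rescue, 26.4 and 26.03 FPKM in knockout and 16.7 and 17.5 FPKM in control. Knockout and TAFH-deleted clone 1 were highest and clone 2 lowest. Ccl17, a ligand of CCR4, was listed at 7.92 and 0.596 FPKM in TAFH-deleted, 5.67 and 3.05 FPKM in wild-type rescue, 4.58 and 7.41 FPKM in knockout and 4.67 and 5.04 FPKM in control, on 3 to 35 fragments. Ccl9 was listed at 0.700 and 0.154 FPKM in TAFH-deleted, 6.75 and 2.11 FPKM in wild-type rescue, 2.87 and 2.62 FPKM in knockout and 2.75 and 2.78 FPKM in control, and its TAFH-deleted mean was 10.4-fold below wild-type rescue (limma, adjusted p = 0.123). Ccl25, which guides T cells to thymus and gut, was listed at 18.8 and 13.1 FPKM in TAFH-deleted, 10.99 and 12.2 FPKM in wild-type rescue, 14.6 and 14.6 FPKM in knockout and 14.6 and 17.7 FPKM in control. Both TAFH-deleted clones were above both wild-type clones for Ccl25, one of the 2 chemokines for which this held, with Cxcl3.

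The scavenging receptor gene Cxcr7 was listed at 6.46 and 2.02 FPKM in TAFH-deleted, 23.2 and 24.5 FPKM in wild-type rescue, 4.41 and 4.46 FPKM in knockout and 20.3 and 20.1 FPKM in control. TAFH-deleted and knockout were low and wild-type rescue and control high, without overlap. The TAFH-deleted mean was 5.61-fold below wild-type rescue, a log2 difference of -2.38 ± 0.48 (SE) (limma, adjusted p = 0.0778). The wild-type rescue mean was 5.37-fold above knockout, with 2.19 ± 0.58 (SE), and the knockout mean 4.57-fold below control, with -1.97 ± 0.67 (SE) (limma, adjusted p = 0.314 and 0.525).

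Loss of Taf4 was examined in knockout against control. The chemokines were on the whole higher in knockout, and the interleukins and antagonists lower, by their medians. Means were at least 2-fold higher for 4 members (Ccl20, Cxcl10, Cxcl3 and Il3ra; 1.84% of all genes) and at least 2-fold lower for 10 (Cxcr7, Il13ra2, Il17d, Il18, Il18rap, Il1rl1, Il1rn, Il20ra, Il34 and Il7; 8.24% of all genes). Il13ra2 reached 1 FPKM in the control libraries alone, so the minimum itself favoured its being lower in knockout. Of 14 chemokines, 11 were higher, with a median log2 difference of 0.29, and of 10 interleukins and antagonists 7 were lower, with a median of -0.86, against -0.03 over all genes. After quantile normalization these medians were 0.31 and -0.63, and the members at least 2-fold different were 6 higher and 9 lower. With 1 sample on each side, these sizes have no replicate check of their own. Cxcl1, Cxcl5, Ccl2, Ccl7, Cxcl12, Cx3cl1 and Cxcl15 are among the 9 members with the highest share of read starts in use, described below. In knockout against control, those 9 had a median of 0.24, with 7 higher and 2 lower. The other 35 members had a median of -0.14, with 15 higher and 20 lower. At 1 read per start, Cxcl1 would be at 172 FPKM in knockout and 148 and 147 FPKM in control. The part of the starts in use in the chemokine median was not tested.

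In wild-type rescue against knockout, 6 members were at least 2-fold higher (Cxcr7, Il18rap, Il1rn, Il20ra, Il33 and Il34; 4.93% of all genes) and 2 at least 2-fold lower (Ccl20 and Cxcl3; 1.94% of all genes). The median log2 difference was 0.05 against -0.04 over all genes. By role, 11 of 14 chemokines were lower, with a median of -0.30 (-0.09 after quantile normalization), and 9 of 10 interleukins and antagonists higher, with a median of 0.43 (0.32, and 0.65 without wild-type clone 2). The 2-fold count was 13 instead of 8 without wild-type clone 1. Il18 and Il7, which were more than 9-fold lower in knockout than in control, had log2 differences of 0.06 ± 0.47 (SE) and 0.03 ± 1.15 (SE) here (limma, adjusted p = 0.969 and 0.993).

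In TAFH-deleted rescue against knockout, 6 members were at least 2-fold higher by their means (Il11, Il15ra, Il18rap, Il1rl1, Il34 and Il7; 2.39% of all genes) and 8 at least 2-fold lower (Ccl20, Ccl9, Cxcl10, Cxcl3, Il1a, Il33, Il3ra and Il6; 4.02% of all genes). After quantile normalization the split was 9 higher and 8 lower. The 2-fold count was 27 without clone 1 and 8 without clone 2, instead of 14. Of 14 chemokines, 13 were lower, with a median log2 difference of -0.84 against 0.03 over all genes. Without clone 2, 7 of 14 were lower, with a median of -0.01, and without clone 1 all 14 were, with a median of -1.55. The median of all 44 members was -0.43, and -0.75 without clone 1 and -0.05 without clone 2. All 6 higher members were 2-fold above knockout in clone 2 and not in clone 1. Of the 8 lower members, 7 were 2-fold below knockout in each clone, and Cxcl10 in clone 2 alone. Without clone 2, the log2 difference of Il11 was -0.42 instead of 0.59.

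Many of these genes were far apart between the TAFH-deleted clones. Of members that reached 1 FPKM in a clone, 21 of all 44 (47.7%) were at least 2-fold apart: 15 were lower in clone 2 (5.51% of all genes) and 6 higher (5.66% of all genes). Between the wild-type clones, 2 members were at least 2-fold lower in clone 2 (Ccl9 and Il1a; 0.815% of all genes) and none higher (0.266%). Within the knockout pair and the control pair no member was 2-fold apart, where 0.0998% and 0.0832% of all genes were in either direction in knockout, and 0.0832% and 0.0748% in control. Among the chemokines, 9 of 14 were at least 2-fold lower in clone 2 and none higher, from 2.11-fold for Cxcl1 to 33.2-fold for Ccl20. Among the interleukins and antagonists, 2 of 10 were lower, Il6 by 16.1-fold and Il18 by 7.40-fold, and 4 were higher, from 2.44-fold for Il18bp to 9.44-fold for Il7. TAFH-deleted clone 2 had the lowest level of the 6 samples in 27 members (24.6% of all genes), 12 of them chemokines. With 1 library per clone, a difference between clones has no test.

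**Figure D4:**
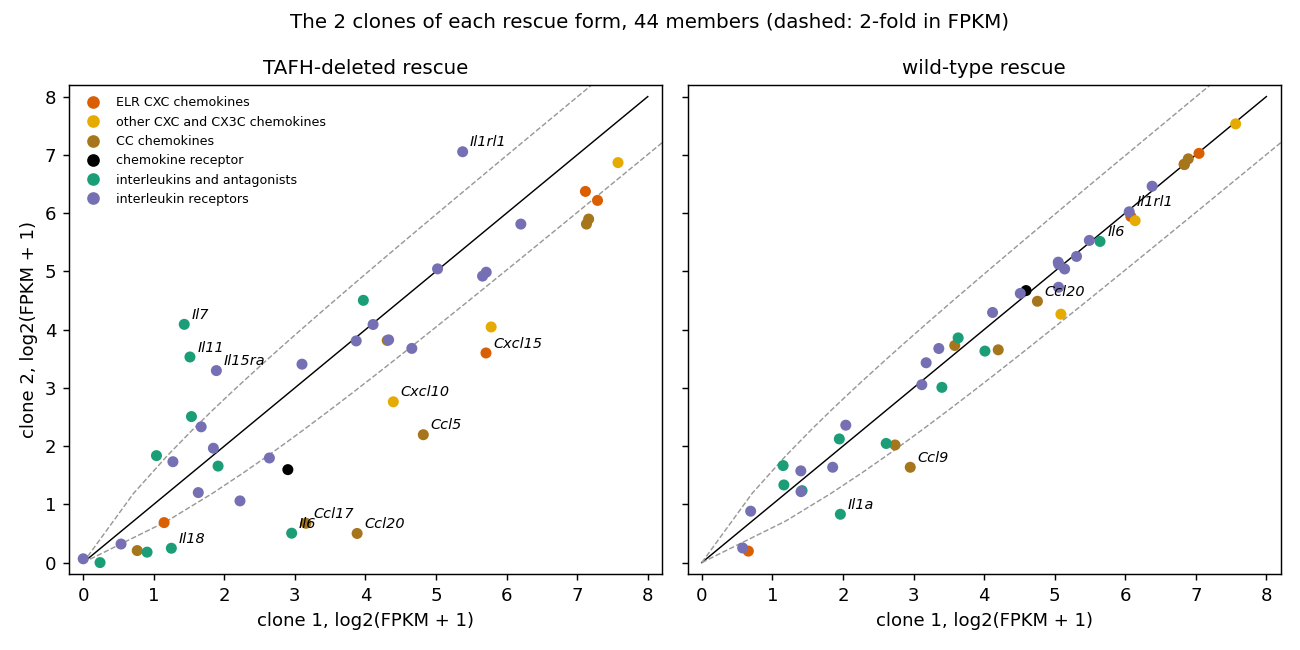
Level in clone 2 (y axis) against clone 1 (x axis), both log2(FPKM + 1), for the 44 members in TAFH-deleted (left) and wild-type rescue (right), with the line of equality and dashed lines at 2-fold in FPKM. In TAFH-deleted rescue 18 members lie below and 7 above the dashed lines, and in wild-type rescue 4 lie below and none above, members under 1 FPKM in both clones included.

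Of 33 genes of the NF-κB and IL-1 receptor pathway, 32 were tested. In TAFH-deleted against wild-type rescue 1 fell (1.69% of all genes) and none rose (0.931%). The median log2 difference was -0.14, against 0.06 over all genes. The gene that fell was Tnfrsf1b, the second receptor of TNF, listed at 4.84 and 3.98 FPKM in TAFH-deleted, 24.6 and 23.4 in wild-type rescue, 10.3 and 10.2 in knockout and 15.1 and 14.9 in control. TAFH-deleted was below and wild-type rescue above all other libraries, with a log2 difference of -2.21 ± 0.16 (SE; limma, adjusted p = 0.0366). Means of 5 pathway genes were at least 2-fold lower (Nfkbiz, Tnfaip3, Irak3, Tnfrsf1b and Bcl3; 7.89% of all genes) and none 2-fold higher (4.52%). The log2 differences of the other 4 were -0.99 ± 0.17 (SE) for Tnfaip3, -2.34 ± 0.44 for Irak3, -1.72 ± 0.71 for Nfkbiz and -1.38 ± 0.59 for Bcl3 (limma, adjusted p of 0.0677 or more). They encode regulators that NF-κB induces or that dampen its pathway, but not all such genes of the list were 2-fold lower. Nfkbia, Nfkbie and Nfkb2 had log2 differences of -0.37 ± 0.36, -0.06 ± 0.86 and 0.005 ± 0.19 (SE). Nfkbiz was listed at 35.8 and 8.01 FPKM in TAFH-deleted and 60.4 and 57.4 FPKM in wild-type rescue, and Bcl3 at 20.4 and 5.89 FPKM in TAFH-deleted and 26.9 and 34.5 FPKM in wild-type rescue, so that clone 2 alone was 2-fold below wild-type rescue for both. Nearest to the threshold after Tnfrsf1b was Irak1, a kinase that relays the signal of the IL-1 receptor, with a higher mean in TAFH-deleted rescue and a log2 difference of 0.78 ± 0.10 (SE; limma, adjusted p = 0.0533). Ikbkg, the regulatory subunit of the IκB kinase, likewise had a higher mean, by 0.66 ± 0.13 (SE; limma, adjusted p = 0.0754). In knockout against control none of the 32 differed 2-fold, where 1.84% of all genes were 2-fold higher and 8.24% lower. Of the 32, 23 were higher, with a median of 0.22 against -0.03 over all genes. Against knockout, the means of 5 pathway genes were at least 2-fold lower in TAFH-deleted rescue (Nfkbiz, Irak3, Tnfrsf1b, Cebpd and Bcl3, with 4.02% of all genes). In wild-type rescue 1, Tnfrsf1b, was at least 2-fold higher than in knockout (4.93% of all genes).

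Of 23 JAK-STAT genes, 21 were tested and none were called in any comparison. Jak3 was the only one with a mean at least 2-fold lower in TAFH-deleted than in wild-type rescue (7.89% of all genes). Its log2 difference was -1.43 ± 0.19 (SE) (limma, adjusted p = 0.0518). Of 17 cytokine and receptor relatives outside the symbol rule, 11 were tested, and Lifr fell in TAFH-deleted against wild-type rescue (1.69% of all genes fell). Lifr encodes the chain that pairs with gp130 for LIF and was listed at 1.29 and 1.85 FPKM in TAFH-deleted, 15.8 and 13.2 in wild-type rescue, 10.4 and 10.4 in knockout and 7.67 and 7.51 in control. TAFH-deleted did not overlap any other group, and the log2 difference was -2.60 ± 0.21 (SE; limma, adjusted p = 0.0389). In TAFH-deleted against wild-type rescue, means of Lif, Lifr and Csf3 were at least 2-fold lower (7.89% of all genes). The median log2 difference of the 11 was -0.50. Against knockout, all 11 were lower in TAFH-deleted rescue, with a median of -0.46. Means were at least 2-fold lower there for Lif, Lifr, Csf3 and Tslp (4.02% of all genes). In wild-type rescue, Lif and Csf3 were at least 2-fold higher than in knockout (4.93%).

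The authors' deposited table lists 61 transcripts of the members, with a q-value for each of 3 comparisons. By the q-values of the authors' deposited table, 16 were higher and 18 lower in knockout against control at a threshold of 0.05. Transcripts of Cxcl12 were on both sides. The knockout pair and the control pair are each counted as 1 sample in the limma fit, which called no member there. For wild-type rescue against knockout, the authors' deposited table gives 14 higher and 8 lower. For TAFH-deleted rescue against knockout, the authors' deposited table gives 1 higher, of Il7, and 1 lower, of Il6. The share of all 30028 transcripts that passed was not computed, so these counts do not set the members apart from other genes.

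The highest chemokine levels come with a limit of the files. The number of fragments a library held for a gene did not exceed the number of possible read start positions on both strands of its transcript, and the highest share of starts in use was 92.7% to 97.4% by library. More than 50% of starts were in use in some library for 9 members: Cxcl1, Cxcl5, Ccl2, Ccl7, Il1rl1, Cxcl12, Il6st, Cx3cl1 and Cxcl15. For Cxcl1 the share was 46.8% in TAFH-deleted clone 2 and up to 89.4% elsewhere. At 1 read per start, Cxcl1 would be listed at 172 FPKM in knockout and 148 and 147 FPKM in control, where it was listed at 153 and 154 FPKM and at 124 and 123 FPKM. In the rescue forms, Cxcl1 at 1 read per start would be at 179 and 157 FPKM in TAFH-deleted and 149 and 151 FPKM in wild-type rescue. Whether such a limit compresses or shifts the differences of these 9 genes was not tested. Without them, the called members between the rescue forms are 4 of 35.

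**Figure D5:**
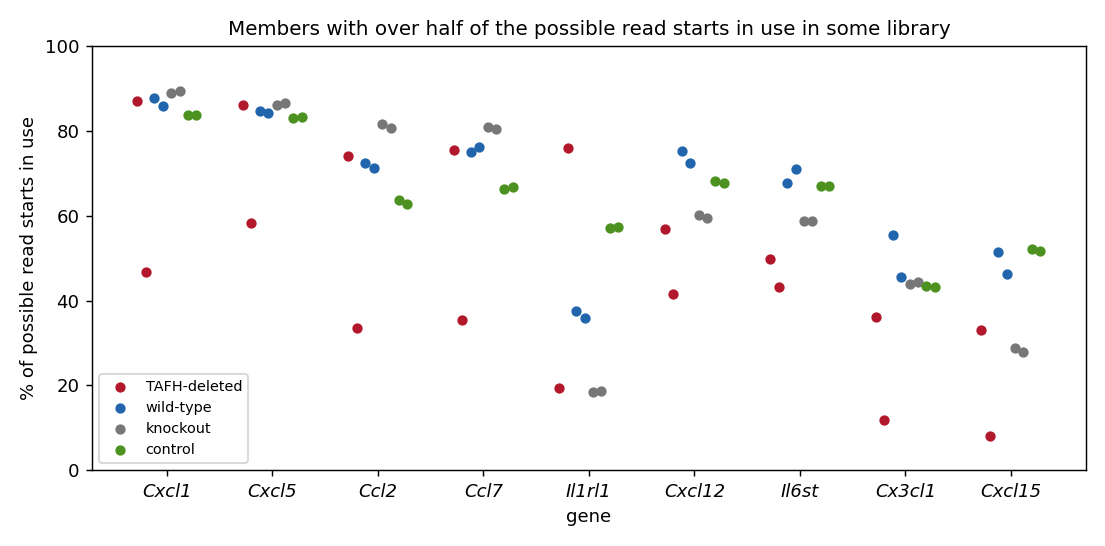
Share of possible read start positions in use (y axis, %) for the 9 members above 50% in some library, on the x axis, with 1 point per library coloured by group. Cxcl1 and Cxcl5 are above 80% in every library except TAFH-deleted clone 2, at 46.8% and 58.2%.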

How the data were processed

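The submitters' processing notes name CASAVA 1.8 and, without versions, TopHat, Cufflinks and Cuffdiff, with mm9 as the build; other settings are not given in the sources used here. The authors deposited FPKM for 30028 RefSeq transcripts in each of 8 libraries, and their own p-values and q-values for 3 comparisons (named as the authors' where used), beside transcript lengths in bases, per the file headers. The FPKM of a gene's transcripts were summed per chromosome. Low FPKM were whole multiples of 1 fragment once 204.1 bases were taken from the length (100% of low values in each library, within 0.05 fragments, over 12350 genes), which gave totals of 14300000 to 17300000 and fragments per gene. No count test was run.

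A gene was kept where 2 or more libraries reached 1 FPKM (12209 genes), less 184 whose longest transcript is under 300 bases. The knockout pair and the control pair, which differed by less than sampling noise, were averaged, giving 6 samples. limma 3.58.1 in R 4.3.3 (limma-trend, two-sided) was fitted to log2(FPKM + 1) over all groups without covariates, with 2 residual and 2.15 prior degrees of freedom, and adjusted by Benjamini-Hochberg over 12025 genes in each of 4 comparisons at 0.05. A log2 difference on this scale understates changes of genes near or under 1 FPKM. The 2-fold counts use means of FPKM, the higher at least 1 FPKM. The code was tested on simulated data.

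The members, the pathway and marker lists and the tests were chosen with earlier results of these data known. Members reaching 5 FPKM in any library are given in every library, and others by range or where a comparison reached 2-fold. Coordinates of genes are mm9 loci of the deposited table, counted from 1. Alternatives were quantile normalization, a pseudocount of 0.1, no filter, short transcripts kept, each library counted with and without a block for replicate number, the compared groups alone, and each library left out.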

Additional observations from a re-analysis of the deposited data

How the results depend on the processing

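The number of called members depended on which libraries set the spread. The share of all genes called under each alternative is not given here, so the counts below describe the test and do not set the members apart. In TAFH-deleted against wild-type rescue, 4 became 1 (Il4ra) without the filter on low values, 0 with short transcripts kept, 14 with each library counted and 13 with a replicate block added, and 0 to 34 with 1 library left out. In TAFH-deleted against knockout, 0 became 7 with each library counted, 4 with the block and 0 to 34 with 1 library left out. In wild-type rescue against knockout, 0 became 9 with each library counted, 8 with the block, 20 with only the groups compared and 0 to 21 with 1 library left out. In knockout against control, 0 became 1 without the filter, 11 with each library counted, 10 with the block and 0 to 19 with 1 library left out; the groups alone could not be fitted, since no residual degrees of freedom remain. Deviations of libraries with the same number correlated at -0.0776 to 0.0571, so the numbers do not pair the samples. Leaving out a TAFH-deleted clone removes the widest pair from the spread, and the left-over clone is then assumed to vary like the other samples. The causes of the other changes were not tested.

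With 1 library left out, the median log2 difference of the members was -0.854 to -0.222 in TAFH-deleted against wild-type rescue, 0.0353 to 0.0766 in wild-type rescue against knockout, and -0.0250 to 0.0144 in knockout against control, where it was negative without either knockout library (-0.00742 and -0.0250). It was 0.0795 after quantile normalization and 0.0654 with a pseudocount of 0.1 in wild-type rescue against knockout, and 0.0622 after quantile normalization in knockout against control. Counts of members at least 2-fold different with 1 library left out were 12 to 26 in TAFH-deleted against wild-type rescue (16 with all; 26 without TAFH-deleted clone 1), 8 to 27 against knockout (14 with all; 27 without clone 1 and 8 without clone 2), and up to 13, without wild-type clone 1, in wild-type rescue against knockout (8 with all). For the 52 member differences that were called or at least 2-fold, 766 values were computed under the alternatives. Of these, 613 kept their direction and side of the threshold, 134 newly passed it, 18 no longer passed, and 1 reversed: Il11 in TAFH-deleted against knockout, at -0.42 without clone 2 and 1.60 without clone 1. Over all 176 member differences, 70 of 2596 such values had the other sign. Of those, 6 passed the threshold, all between the rescue forms without TAFH-deleted clone 2: Ccl2, Ccl5, Ccl7, Cxcl1 and Cxcl5 were then higher, by 0.25 to 0.89, and Il1rl1 lower, at -0.66. Ccl2, Ccl7, Cxcl1 and Cxcl5 are among the 9 members with over 50% of read starts in use. Leaving out these 9 members, chosen after seeing the data, gave 4 called of 35. Values resting on under 10 fragments, such as Il6, Il33, Ccl20 and Ccl17 in TAFH-deleted clone 2, are limited by depth.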
